A study of Arabidopsis thaliana with 111 samples.

Results

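The genes described here encode the enzymes that make the plant hormone abscisic acid. They are 10 of the 21313 loci of an array study of germinating Arabidopsis thaliana seeds. The genes were chosen by name, with earlier results of these data known. They are ABA1 (AT5G67030), ABA4 (AT1G67080), NCED2 (AT4G18350), NCED3 (AT3G14440), NCED5 (AT1G30100), NCED6 (AT3G24220), NCED9 (AT1G78390), ABA2 (AT1G52340), AAO3 (AT2G27150) and ABA3 (AT1G16540), and each was measured by 1 probe set. All seeds were of the accession Columbia-0, with no mutant and no added agent, and germinated on 0.7% water agarose at 22 °C under continuous light. The 111 arrays fell into 28 groups of 4, except for 1 group of 3. By dissection under a microscope, the micropylar and chalazal ends of the endosperm were pooled as one part (MCE) and the radicle was taken with the embryonic axis (RAD), both at 11 stages: 1, 3, 7, 12, 16 and 20 h after sowing, 25 h with the testa intact, 25 h with the testa ruptured, 31 h, 38 h with the endosperm intact and 38 h with the endosperm ruptured. The remaining endosperm (PE) was taken at 3 h (3 arrays) and 16 h, the cotyledons (COT) at 3, 16 and 31 h, and whole dry seed (Dry) without sowing.

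Abscisic acid is made from carotenoids. In the plastid, ABA1 epoxidises zeaxanthin to violaxanthin, ABA4 is needed to make neoxanthin, and the 9-cis-epoxycarotenoid dioxygenases (NCED) cleave the epoxycarotenoids to xanthoxin, the committed step that usually limits the rate. In the cytosol, the short-chain dehydrogenase ABA2 turns xanthoxin into abscisic aldehyde, which the aldehyde oxidase AAO3 oxidises to abscisic acid with a molybdenum cofactor that ABA3 sulfurates. In seeds the hormone maintains dormancy and opposes germination, its content is known to fall after imbibition, and the endosperm is known as a source of it.

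Levels are log2 values of the arrays, so 1 unit is a doubling. Probe sets differ in brightness, so levels are compared within a gene and not between genes. A level under 4.04 is called low here, since 25% of all loci never had a group mean above it. Differences were tested with limma in 1 fit over all arrays, and a difference passed when its Benjamini-Hochberg adjusted p over all loci was under 0.05 and it was at least 2-fold (1 log2 unit). Steps between consecutive stages, other than those at rupture, were chosen after the levels had been seen, a limit on their p-values. Errors are SDs over the 4 arrays of a group (3 for PE at 3 h) beside a mean, and standard errors beside a difference. The labels do not say whether replicates came from separate batches of seed, so the tests rest on the spread between arrays of a group, which may be technical.

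The parts were checked against marker genes. EPR1, an endosperm extensin-like gene, had group means of 12.4 to 13.9 in MCE and PE, but also 7.78 in RAD at 1 h and 7.81 in COT at 3 h, and it was down to 3.53 in RAD at 38 h with the endosperm ruptured and 3.91 in COT at 31 h. The summed log2 level of EPR1 and EXPA2, the 2 endosperm markers measured, lay between 18.2 and 27.8 on the MCE arrays and between 7.44 and 12.8 on the RAD arrays. Of 7 root markers, PLT1, PLT2 and MYB66 were low in all MCE groups. The other 4 were not: SCR (5.55 to 8.62), EIR1 (4.37 to 5.26) and SHR (4.13 to 4.53) were above 4.04 at all MCE stages, and the root cap gene SMB from 20 h on, up to 6.95 at 31 h. The sum over the 7 lay between 27.8 and 35.3 on the MCE arrays, with its highest value at 25 h with the testa ruptured, and between 32.0 and 54.7 on the RAD arrays. The 2 cotyledon markers, AFO and YAB3, summed to 13.9 to 20.4 on the COT arrays, 7.87 to 13.5 on the MCE arrays and 6.87 to 8.84 on the RAD arrays. Of 4 seed coat markers, TT10, BAN and TT2 were low in all groups, and TT12 was above 4.04 in all of them, with means of 4.70 to 5.16. By the labels, 6 arrays had been redone for quality control, and for 3 arrays the source name gave another stage than the title; all were kept by title.

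**Figure D1:**
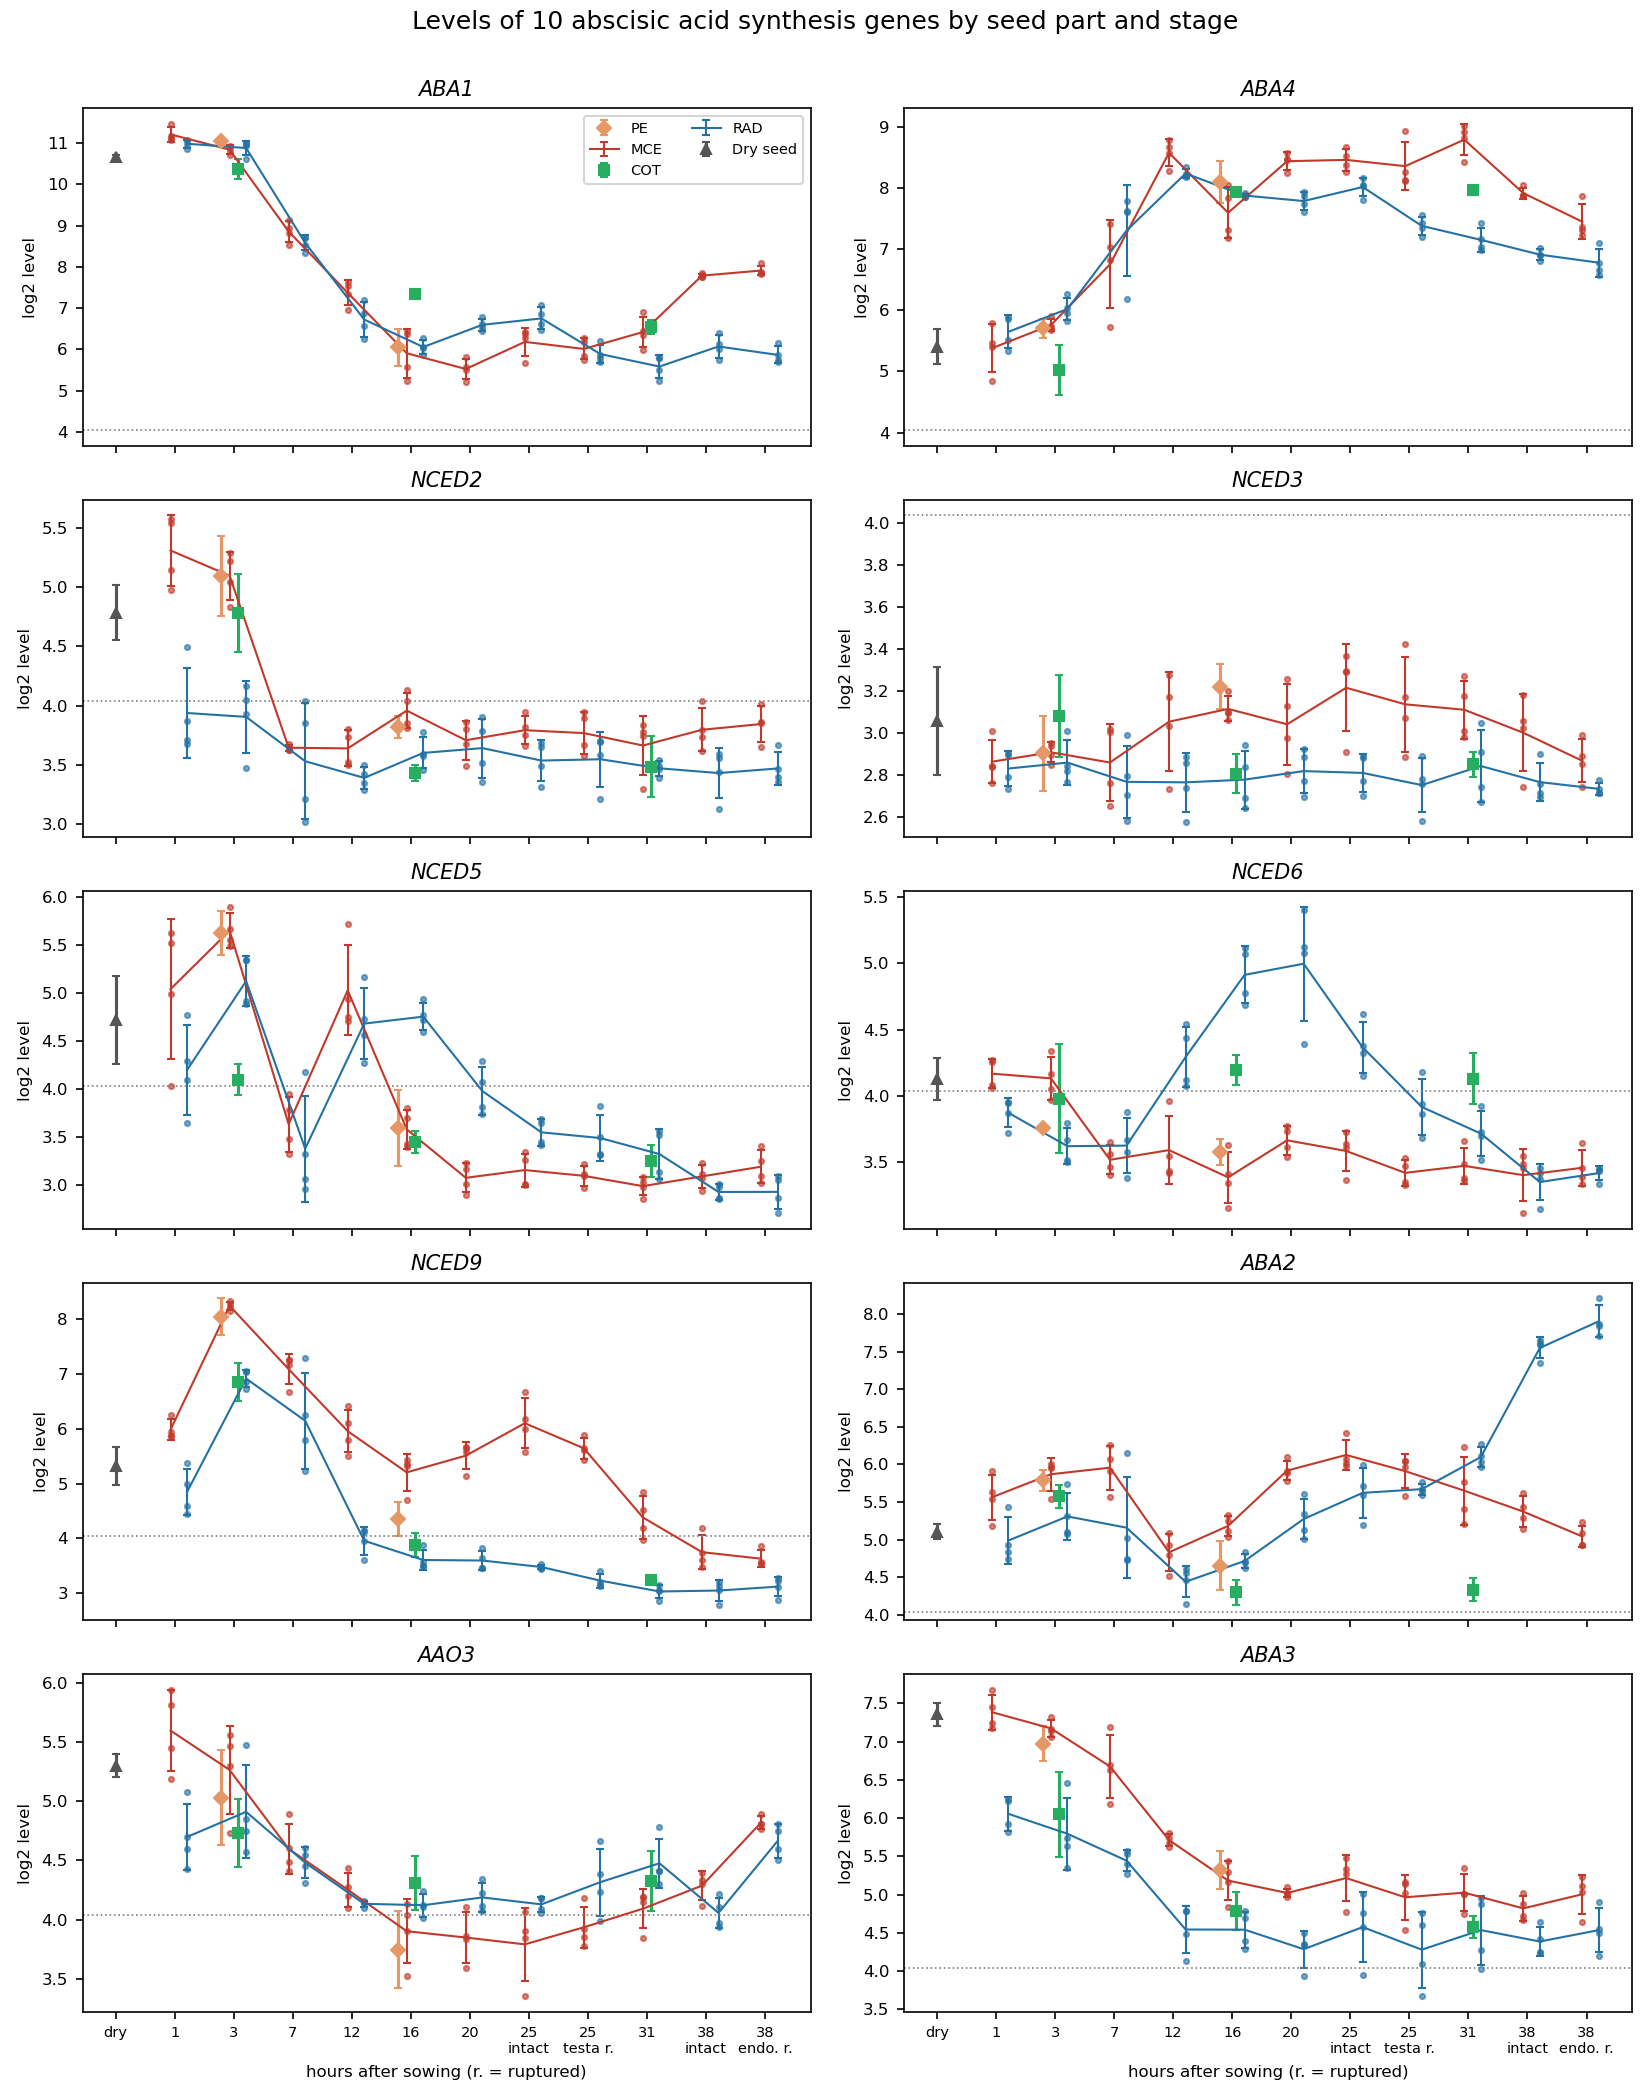
Log2 level of each of the 10 genes (y axis, a scale of its own for each gene) against stage (x axis, hours after sowing). Lines join the means of MCE (red) and RAD (blue) with dots for single arrays, diamonds are PE, squares COT and triangles dry seed, bars are SDs, and the dotted line marks 4.04. ABA1 fell in every part, ABA4 was higher after the first 7 h, NCED9 stayed higher in MCE than in RAD, and ABA2 was highest in RAD at 38 h.

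The genes differed in how far their level moved. Group means of ABA1 spanned 5.69 log2 units and those of NCED9 spanned 5.22, followed by ABA4 (3.77), ABA2 (3.61), ABA3 (3.11) and NCED5 (2.72). NCED2 (1.92), AAO3 (1.86) and NCED6 (1.64) spanned less than 2 units, and NCED3 spanned 0.49. The median span over all loci was 2.06, and 51.4% of loci spanned at least 2 units, against 6 of these 10 genes. Over the 11 stages of MCE and RAD, stage accounted for 93.7% of the variation between group means of ABA1, 87.3% for NCED5 and 84.9% for ABA4. The share of the part-by-stage term was largest for ABA2 (54.8%) and NCED6 (43.8%). The part itself held most for NCED3 (61.1%), then NCED9 (25.5%), ABA3 (22.6%) and NCED2 (21.1%).

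ABA1, the zeaxanthin epoxidase, fell steeply in all 4 parts during the first 16 h. In MCE the arrays read 11.13, 11.17, 11.47 and 11.08 at 1 h, 8.54, 8.95, 9.13 and 8.82 at 7 h, and 5.23, 5.58, 6.37 and 6.45 at 16 h. In RAD they read 10.85, 11.07, 11.06 and 10.96 at 1 h, 8.34, 8.54, 8.73 and 8.71 at 7 h, and 6.06, 6.03, 6.28 and 5.86 at 16 h. No array of a later of these stages reached one of an earlier stage in the same part. The 12 h level was 14.3-fold below that at 1 h in MCE (-3.84 ± 0.18, adjusted p = 1.01e-35) and 19.2-fold below it in RAD (-4.26 ± 0.18, adjusted p = 5.9e-39). In whole parts of a seed, less transcript per cell and fewer cells of a type that holds it cannot be told apart.

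ABA1 then took different courses in the 2 parts. In MCE its lowest mean was that at 20 h (5.52 ± 0.24), the lowest of all 28 groups except after a repeated quantile normalization, where RAD at 31 h was lowest. In RAD it was 6.59 ± 0.15 at that stage, a difference of -1.07 ± 0.18 (adjusted p = 1.87e-07) that dropped to -0.97 without MCE at 20 h replicate 1 and then missed the fold minimum. At 38 h with the endosperm intact the MCE arrays read 7.75, 7.84, 7.76 and 7.80, against 5.75, 6.26, 5.83 and 6.19 at 25 h with the testa ruptured. This was a rise of 1.78 ± 0.18 (adjusted p = 6.78e-15), and most of it came after 31 h, when the mean was 6.42 ± 0.37. Over the same hours the summed level of the 2 cotyledon markers on MCE arrays went up too, to 12.0 to 13.5 at 38 h with the endosperm intact, against 11.2 to 11.6 at 25 h with the testa ruptured, and their part in the ABA1 values was not tested. In RAD the same interval gave 0.18, from means of 6.07 ± 0.28 at 38 h and 5.89 ± 0.21 at 25 h, and the MCE change exceeded the RAD change by 1.59 ± 0.25 (adjusted p = 9.44e-08). At the last stage, with the endosperm ruptured, ABA1 was 7.91 ± 0.12 in MCE and 5.87 ± 0.21 in RAD, with no overlap of arrays (2.04 ± 0.18, adjusted p = 1.89e-18). In the order of the 28 group means, MCE at 1 h was first, PE at 3 h, RAD at 1 h, RAD at 3 h and MCE at 3 h followed, and array ranges of neighbours were apart for 5 of 27 pairs.

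ABA4, needed for the neoxanthin step, went the other way. In MCE the arrays read 5.47, 5.79, 4.85 and 5.41 at 1 h, 7.41, 5.73, 6.81 and 7.04 at 7 h and 8.67, 8.78, 8.27 and 8.58 at 12 h. In RAD they read 5.85, 5.51, 5.33 and 5.89 at 1 h, 7.63, 7.79, 6.19 and 7.60 at 7 h and 8.35, 8.19, 8.18 and 8.22 at 12 h. The single low array at 7 h in each part, MCE replicate 2 at 5.73 and RAD replicate 3 at 6.19, is one of the 6 arrays that were redone. For ABA4 both lie within the array ranges at 3 h (5.67 to 5.91 in MCE, 5.82 to 6.26 in RAD), while for ABA1 they read 8.95 and 8.73, near the other arrays at 7 h and below the 3 h means of 10.8 and 10.9. They were kept at 7 h by title, and the labels do not settle whether the repeats hold material of that stage, a limit on all means and steps at 7 h. ABA4 was 9.16-fold higher at 12 h than at 1 h in MCE (3.20 ± 0.21, adjusted p = 4.64e-26) and 6.02-fold higher in RAD (2.59 ± 0.21, adjusted p = 1.33e-20).

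After 12 h, ABA4 did not hold one level in MCE. Its means were 8.57 ± 0.22 at 12 h, 7.59 ± 0.42 at 16 h, 8.44 ± 0.14 at 20 h, 8.79 ± 0.26 at 31 h, the highest of all groups, and 7.45 ± 0.29 at 38 h with the endosperm ruptured. The difference of 16 h from 12 h, -0.98, missed the fold minimum, and passed at -1.13 to -1.03 with array weights, without the arrays whose source name differs, and without MCE at 16 h replicate 1 or 2 or at 12 h replicate 3. In RAD the means were 8.24 ± 0.08 at 12 h, 7.87 ± 0.03 at 16 h, 8.01 ± 0.15 at 25 h with the testa intact, 7.15 ± 0.20 at 31 h and 6.78 ± 0.23 at 38 h with the endosperm ruptured. MCE exceeded RAD at 31 h by 1.64 ± 0.21 (adjusted p = 2.15e-11), with arrays of 9.01, 8.42, 8.81 and 8.91 in MCE and 7.42, 7.03, 7.16 and 6.99 in RAD. The difference of 1.01 ± 0.21 at 38 h with the endosperm intact (adjusted p = 1.19e-05) sat at the fold minimum and fell to 0.96 without MCE replicate 1 and to 0.97 without RAD replicate 1. It also missed the fold minimum after a repeated quantile normalization (0.996) and with array weights (0.98). Of the neighbours in the order of its 28 means, none had array ranges that were apart.

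NCED9, a dioxygenase known for its part in seed development and dormancy, peaked at 3 h in MCE and RAD, and was higher at 3 h than at 16 h in PE and COT, which were not sampled before 3 h. The MCE arrays read 8.34, 8.16, 8.22 and 8.28 at 3 h, against 6.26, 5.87, 5.94 and 5.88 at 1 h. The RAD arrays read 6.85, 7.06, 7.04 and 6.72 at 3 h, against 4.45, 5.37, 4.99 and 4.59 at 1 h. At both stages each MCE array was above each RAD array. Between these stages NCED9 rose 4.8-fold in MCE (2.26 ± 0.21, adjusted p = 1.09e-15) and 4.20-fold in RAD (2.07 ± 0.21, adjusted p = 4.08e-13). The level then fell in both parts. At 12 h the arrays read 5.51, 5.80, 6.11 and 6.41 in MCE and 3.60, 3.95, 4.12 and 4.16 in RAD (2.00 ± 0.21, adjusted p = 5.11e-14).

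From 12 h on, all RAD groups were low for NCED9, with means of 3.03 to 3.96, while MCE kept 5.20 ± 0.34 at 16 h and 6.10 ± 0.45 at 25 h with the testa intact. The largest difference between the parts was that at 25 h with the testa intact, when the arrays read 5.57, 6.0, 6.18 and 6.66 in MCE and 3.54, 3.46, 3.43 and 3.47 in RAD (2.63 ± 0.21, adjusted p = 2.67e-20). As the RAD levels were low from 12 h on, the size of these differences is limited by the low end of the scale. NCED9 passed higher in MCE at 8 of 11 stages, and MCE had the higher mean at 11 of 11. The exceptions were 7 h (0.94), where RAD replicate 3, a redone array, read 7.30 and the others 5.23 to 6.26 (1.33 without it, which passes), and the 2 stages at 38 h (0.70 and 0.51). In MCE it fell by 1.90 ± 0.21 between 25 h with the testa ruptured and 38 h with the endosperm intact (3.75 ± 0.31 at the later stage, against 5.64 ± 0.19 at the earlier; adjusted p = 4.48e-13). This fall exceeded that in RAD by 1.71 ± 0.30 (adjusted p = 8.22e-07), where the gene was already low.

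NCED5, another dioxygenase of seeds, had an early peak, a trough at 7 h and a second peak. In MCE its means were 5.04 ± 0.73 at 1 h, 5.65 ± 0.18 at 3 h, 3.63 ± 0.29 at 7 h, 5.03 ± 0.47 at 12 h and 3.58 ± 0.20 at 16 h. In RAD they were 4.20 ± 0.47, 5.12 ± 0.26, 3.38 ± 0.55, 4.68 ± 0.37 and 4.75 ± 0.14 at these stages. The trough was low in both parts, and at 16 h RAD but not MCE was still above 4.04. The step into the trough was -2.01 ± 0.21 in MCE (adjusted p = 1.05e-14) and -1.74 ± 0.21 in RAD (adjusted p = 4.24e-12), and the step out of it 1.39 ± 0.21 in MCE (adjusted p = 1.18e-08) and 1.30 ± 0.21 in RAD (adjusted p = 7.38e-08). At 16 h the arrays read 3.43, 3.39, 3.8 and 3.7 in MCE and 4.77, 4.59, 4.71 and 4.93 in RAD, so that MCE lay below RAD by 1.17 ± 0.21 (adjusted p = 7.74e-07). From 16 h in MCE and from 20 h in RAD all means were low.

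NCED6, whose transcript is known from the endosperm of developing seeds, was highest in RAD. The RAD arrays read 3.58, 3.38, 3.88 and 3.67 at 7 h, 5.12, 4.77, 4.68 and 5.07 at 16 h and 5.12, 5.07, 4.39 and 5.40 at 20 h. The MCE arrays read 3.46, 3.40, 3.56 and 3.65 at 7 h, 3.63, 3.35, 3.42 and 3.16 at 16 h and 3.77, 3.74, 3.62 and 3.54 at 20 h. MCE was thus below RAD with no overlap at the 2 later stages, by 1.52 log2 units at 16 h (-1.52 ± 0.13, adjusted p = 7.63e-18) and by 1.33 at 20 h (-1.33 ± 0.13, adjusted p = 3.96e-15). In MCE only the means at 1 h (4.17 ± 0.11) and 3 h (4.13 ± 0.16) were above 4.04, as was dry seed (4.13 ± 0.16). COT held 4.20 ± 0.11 at 16 h and 4.13 ± 0.19 at 31 h. Of its 28 groups, 19 were low, and the 4 highest were RAD at 20 h, 16 h, 25 h with the testa intact and 12 h. Among these, the array range at 16 h lay above those at 25 h and at 12 h, and the other ranges overlapped.

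NCED2 was above 4.04 in 5 groups, all of them before 7 h. They were MCE at 1 h (5.31 ± 0.30), MCE at 3 h (5.09 ± 0.20), PE at 3 h (5.09 ± 0.34), dry seed (4.78 ± 0.23) and COT at 3 h (4.78 ± 0.33). The arrays at 1 h read 4.97, 5.14, 5.58 and 5.54 in MCE and 3.68, 3.71, 4.49 and 3.87 in RAD, with all MCE arrays above all RAD arrays (1.37 ± 0.16, adjusted p = 3.4e-12). In MCE the level dropped by 1.45 ± 0.16 between 3 h and 7 h (3.64 ± 0.02 at 7 h; adjusted p = 1.09e-13), and its change from 1 h to 12 h differed from that in RAD, where the gene was low at all 11 stages, by -1.12 ± 0.22 (adjusted p = 2.7e-05). NCED3, known from the drought response of leaves and roots, was low in all 28 groups, with means of 2.73 to 3.22. MCE had the higher mean at 11 of 11 stages, by 0.22 on average, a difference within the range of low values. It passed in none of the 43 main comparisons or the 16 consecutive steps.

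ABA2, the dehydrogenase, was the gene of the 10 with the largest late rise in RAD. Its RAD arrays read 5.65, 5.68, 5.59 and 5.77 at 25 h with the testa ruptured, 6.12, 6.28, 6.03 and 5.97 at 31 h, 7.65, 7.59, 7.35 and 7.62 at 38 h with the endosperm intact and 7.87, 8.21, 7.71 and 7.84 at 38 h with the endosperm ruptured. In MCE they read 5.58, 6.04, 6.05 and 5.97, then 5.40, 5.20, 5.77 and 6.23, then 5.62, 5.44, 5.14 and 5.29, and last 5.23, 5.08, 4.92 and 4.93 at the same stages. The 2 groups of RAD at 38 h headed the order of all 28, and their array ranges were apart from each other and from the next group. ABA2 rose in RAD by 1.88 ± 0.18 between 25 h with the testa ruptured and 38 h with the endosperm intact (adjusted p = 4.27e-16), and the MCE change differed from the RAD change by -2.42 ± 0.25 (adjusted p = 4.56e-14). At the last stage ABA2 was 7.29-fold lower in MCE than in RAD (-2.87 ± 0.18, adjusted p = 3.08e-27).

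Before that rise ABA2 dipped at 12 h in both parts, to 4.83 ± 0.24 in MCE and 4.44 ± 0.21 in RAD. In the step from 7 h it passed in MCE (-1.13) but not in RAD. For 12 h minus 1 h it missed the fold minimum, at -0.73 in MCE and -0.55 in RAD. By 25 h with the testa intact it was higher again, by 1.30 ± 0.18 in MCE (6.13 ± 0.20, adjusted p = 7.95e-10) and by 1.18 ± 0.18 in RAD (5.62 ± 0.33, adjusted p = 2.23e-08). Its lowest group means were those of COT at 16 h (4.30 ± 0.17) and 31 h (4.34 ± 0.15).

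ABA3, the cofactor sulfurase, fell with time and was higher in MCE than in RAD at 11 of 11 stages. At 1 h its arrays read 7.18, 7.45, 7.24 and 7.68 in MCE and 5.93, 5.81, 6.23 and 6.26 in RAD. At 12 h they read 5.62, 5.81, 5.68 and 5.74 in MCE and 4.48, 4.13, 4.78 and 4.78 in RAD. The groups did not overlap at either stage, and the gap passed at the first 4 stages, with values of 1.33, 1.38, 1.23 and 1.17 (adjusted p of 8.92e-07 at 12 h, its largest of these), while from 16 h on it was 0.43 to 0.74. The 12 h level was below the 1 h level by 1.67 in MCE (-1.67 ± 0.20, adjusted p = 5.94e-12) and by 1.51 in RAD (-1.51 ± 0.20, adjusted p = 2.12e-10). At 1 h MCE held 7.39 ± 0.23 and RAD 6.06 ± 0.22, beside 7.36 ± 0.15 in dry seed.

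AAO3, the abscisic aldehyde oxidase, moved less. In MCE the arrays read 4.20, 4.27, 4.10 and 4.44 at 12 h, against 5.95, 5.82, 5.19 and 5.45 at 1 h, a fall of 1.35 (-1.35 ± 0.16, adjusted p = 2.47e-12). In RAD the same difference was -0.57 ± 0.16. Its lowest means, 3.74 ± 0.32 in PE at 16 h and 3.79 ± 0.31 in MCE at 25 h with the testa intact, were low, as were 5 groups in all. At 38 h its level was higher after rupture of the endosperm than before it in both parts, by 0.53 ± 0.16 in MCE (4.82 ± 0.05 ruptured, 4.29 ± 0.12 intact; adjusted p = 0.0219) and by 0.61 ± 0.16 in RAD (4.66 ± 0.14 ruptured, 4.06 ± 0.13 intact; adjusted p = 0.00511). The arrays did not overlap in either part, but neither value reached the fold minimum. AAO3 was the 1 gene of the 10 with an adjusted p under 0.05 at any fold there. Of all loci, 7.76% in MCE and 9.73% in RAD had one.

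**Figure D2:**
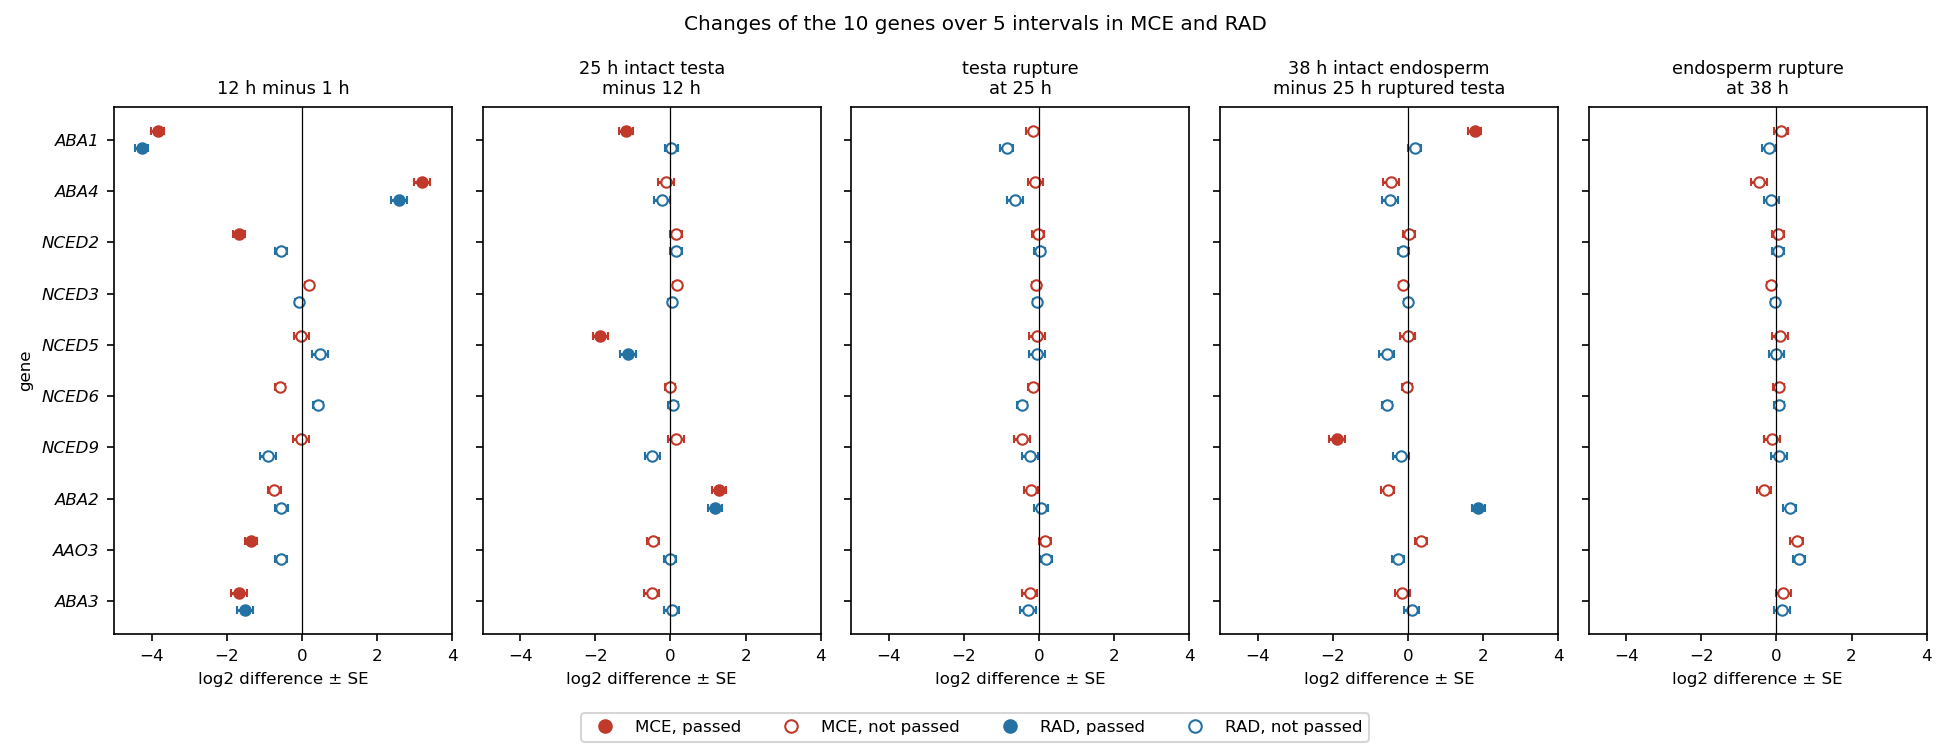
Differences of the 10 genes (y axis) over 5 intervals, 1 panel each, as log2 difference of the later or ruptured stage minus the earlier or intact one (x axis) with bars of 1 standard error. Filled points passed, open points did not; red is MCE and blue RAD. The 12 h minus 1 h panel holds the largest shifts, -3.84 and -4.26 for ABA1, and neither rupture panel holds a filled point.

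Of the 5 intervals, the first 12 h held the most of these genes that passed in each part, and also the largest share of all loci. Between 12 h and 1 h 5 of the 10 genes passed in MCE, 4 lower (ABA1, ABA3, AAO3, NCED2) and ABA4 higher, where 26.9% of all loci passed and 11.9% passed lower. In RAD 3 passed, ABA1 and ABA3 lower and ABA4 higher, where 28.9% of loci passed. From 12 h to 25 h with the testa intact, 3 passed in MCE (ABA1 and NCED5 lower, ABA2 higher; 17.1% of loci) and 2 in RAD (NCED5 lower, ABA2 higher; 9.69% of loci). Between 25 h with the testa ruptured and 38 h with the endosperm intact, 2 passed in MCE (ABA1 higher, NCED9 lower; 12.7% of loci) and ABA2 alone in RAD (12.6% of loci). Over the whole course, 38 h with the endosperm ruptured minus 1 h, 6 passed in MCE with ABA4 as the one that rose (36.9% of loci), and 6 in RAD with ABA2 and ABA4 higher (39.3% of loci). The genes lower at the end in both parts were ABA1, ABA3, NCED5 and NCED9. Medians of the 10 genes over the whole course were -1.12 in MCE and -0.46 in RAD, beside -0.14 and -0.18 over all loci. The rise of ABA4 in RAD over the whole course (1.13 ± 0.21) was 0.92 after a repeated quantile normalization and then missed the fold minimum.

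Rupture of the testa and of the endosperm moved none of the 10 genes past the threshold. At 25 h, testa ruptured minus intact gave 0 in MCE (limma; 3.37% of loci passed; 1 gene and 26.8% of loci at an unadjusted p under 0.05) and 0 in RAD (2.02% of loci passed; 3 genes and 19.1% of loci at an unadjusted p under 0.05). The 3 in RAD, ABA1, ABA4 (-0.64 ± 0.21, adjusted p = 0.0328) and NCED6 (-0.45 ± 0.13, adjusted p = 0.0173), also had an adjusted p under 0.05, as did 9.64% of loci, and missed the fold minimum. The largest, ABA1, was -0.86 ± 0.18, with a 95% interval of -1.22 to -0.51, arrays of 5.70, 5.85, 5.79 and 6.19 with a ruptured testa and 6.46, 7.06, 6.62 and 6.85 with an intact one, and an adjusted p of 0.000197. At 38 h, endosperm ruptured minus intact gave 0 in MCE (1.32% of loci passed; 2 genes and 17.8% of loci at an unadjusted p under 0.05) and 0 in RAD (1.91% of loci passed; 2 genes and 19.8% of loci at an unadjusted p under 0.05). Over both ruptures and parts, the 95% intervals of the 10 genes reached no further than -1.22 and 0.93.

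The MCE change differed from the RAD change past the threshold in 7 of 60 tests of the interaction, or 11.7%, where 13% of all such tests over all loci passed. Per interval these were NCED2 for 12 h minus 1 h (9.64% of loci), ABA1 for 25 h with an intact testa minus 12 h (-1.22 ± 0.25; 14.3% of loci), ABA1, ABA2 and NCED9 for 38 h with an intact endosperm minus 25 h with a ruptured testa (18.8% of loci), and ABA1 (1.82 ± 0.25) and ABA2 (-3.44 ± 0.25) for the whole course (30.9% of loci). None passed for the 2 ruptures (limma; 2.16% of loci passed for the testa and 1.98% for the endosperm; at an unadjusted p under 0.05, 1 of 10 genes each, and 15% and 12.7% of loci).

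**Figure D3:**
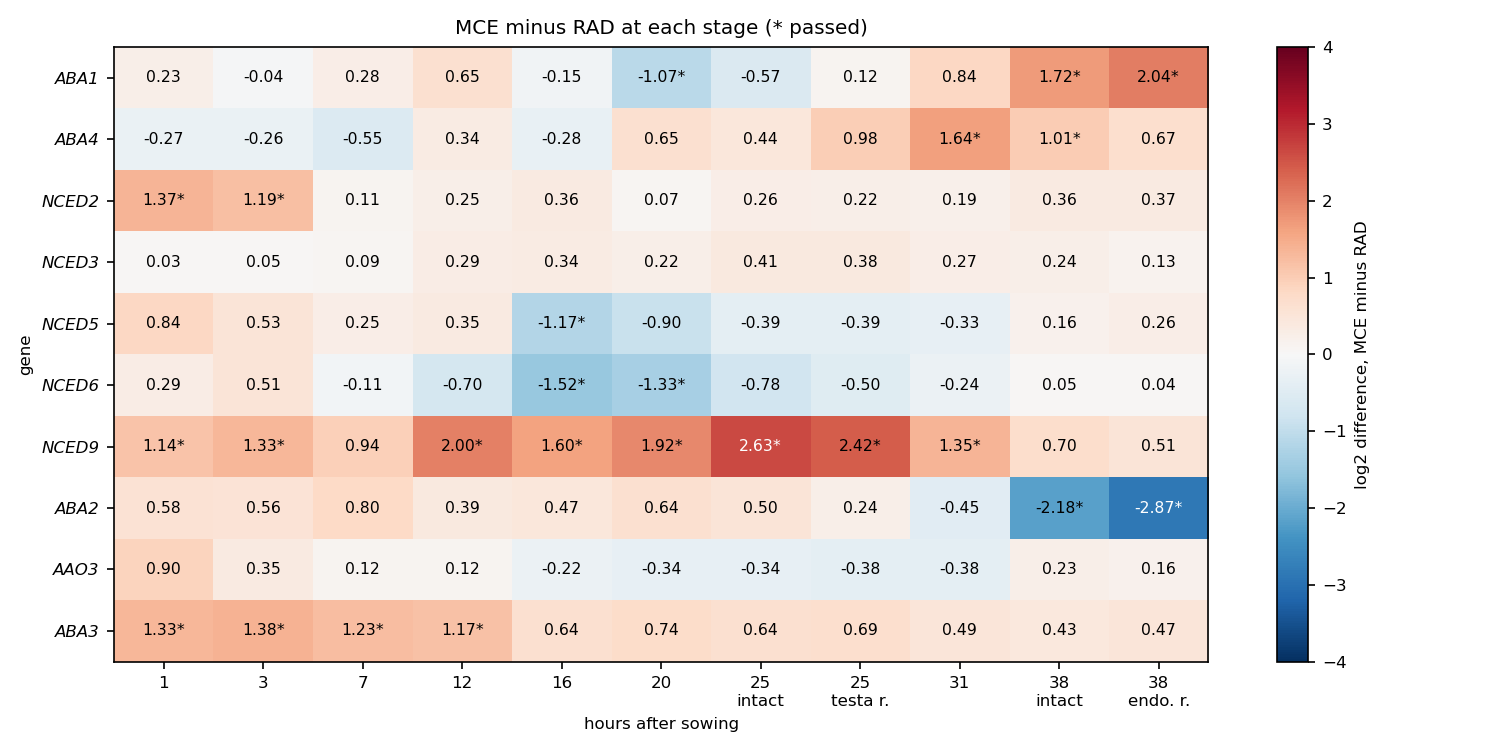
Log2 difference of MCE minus RAD (colour and printed value) for each gene (rows) at each of 11 stages (columns, hours after sowing; r. is ruptured). An asterisk marks a difference that passed. The NCED9 row is positive throughout, the ABA3 row passes only up to 12 h, and ABA1 and ABA2 part in opposite directions at 38 h.

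Set side by side at each stage, the genes higher in MCE than in RAD changed with time. At 1 h and at 3 h the same 3 genes passed, ABA3, NCED2 and NCED9, all higher in MCE (5.48% and 6.65% of loci passed in either direction). At 7 h ABA3 alone passed (8.72% of loci), and without RAD at 7 h replicate 3, a redone array, NCED9 (1.33) and ABA2 (1.13) passed too. At 12 h it was ABA3 and NCED9 (11.2% of loci). At 16 h NCED9 was higher and NCED5 and NCED6 lower in MCE (14.8% of loci), and at 20 h NCED9 was higher and ABA1 and NCED6 lower (20.2% of loci). NCED9 alone passed at 25 h with the testa intact and ruptured (22.9% and 26.2% of loci), and NCED9 and ABA4 at 31 h (30.4% of loci). At 38 h ABA1 was higher and ABA2 lower in MCE both with the endosperm intact, where ABA4 passed too (31.2% of loci), and ruptured (31.6% of loci). Beside the early differences stands EPR1, with 13.9 ± 0.10 in MCE and 7.78 ± 0.31 in RAD at 1 h, and 13.6 ± 0.18 in MCE and 5.85 ± 0.26 in RAD at 12 h. The part of endosperm transcripts in the RAD values was not tested.

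**Figure D4:**
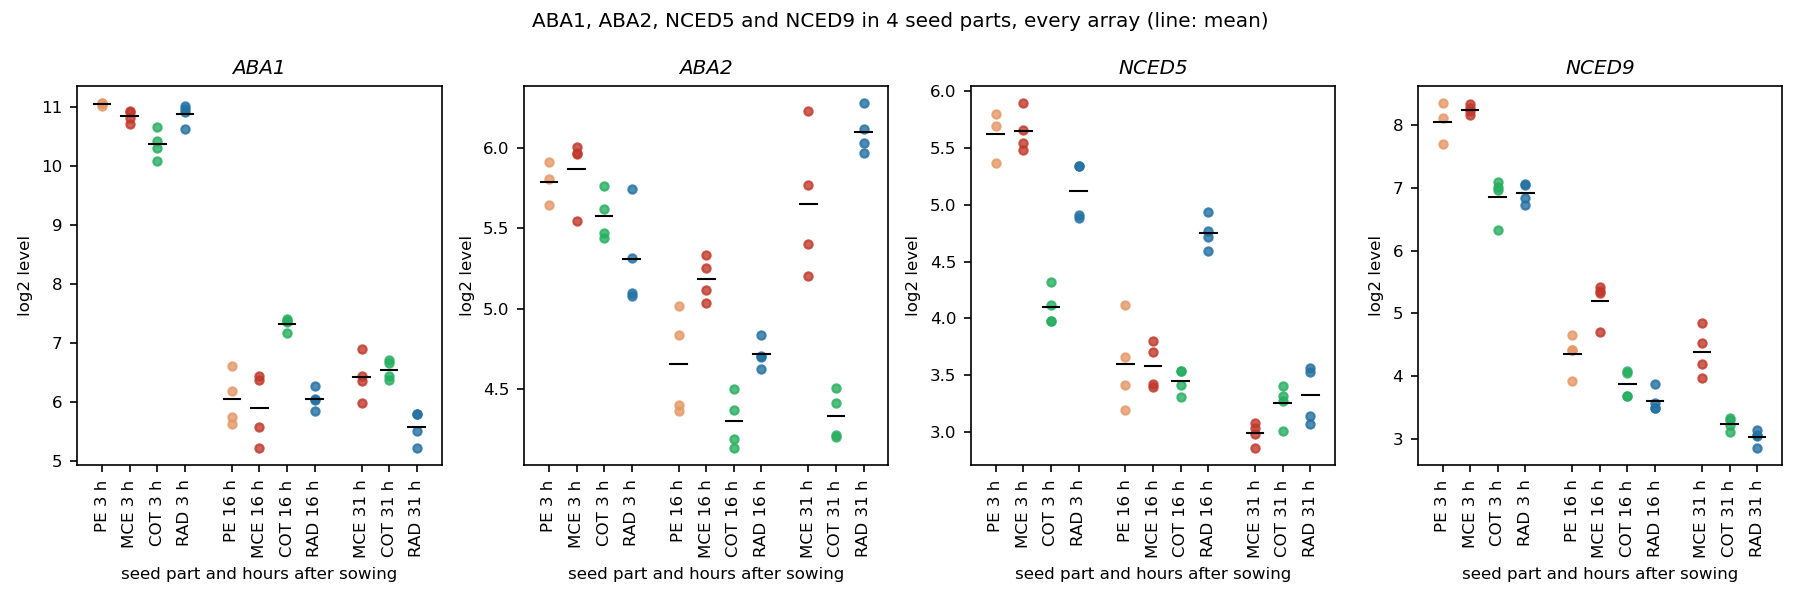
Log2 levels of ABA1, ABA2, NCED5 and NCED9 (y axes, a scale of its own for each gene) in PE, MCE, COT and RAD at 3, 16 and 31 h (x axis); points are arrays and black lines means. At 3 h the PE arrays overlap those of MCE for ABA2, NCED5 and NCED9 and lie above them for ABA1. COT keeps the highest ABA1 at 16 h. COT has the lowest ABA2 mean at 16 h, where its arrays overlap those of PE, and at 31 h.

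With all arrays, no gene passed between the remaining endosperm and the endosperm ends. PE minus MCE gave 0 of 10 genes at 3 h (limma; 0.305% of loci passed; 1 gene and 10% of loci at an unadjusted p under 0.05) and 0 at 16 h (1.11% of loci passed; 3 genes and 14.7% of loci at an unadjusted p under 0.05). At 16 h NCED9 came nearest, with arrays of 3.92, 4.42, 4.41 and 4.65 in PE and 4.70, 5.33, 5.43 and 5.36 in MCE, which did not overlap (-0.85 ± 0.21, 95% interval -1.27 to -0.43, adjusted p = 0.00372). Without MCE at 16 h replicate 1, the lowest MCE array, this was -1.02 and passed. The 95% intervals of the 10 genes reached from -0.66 to 0.59 at 3 h and from -1.27 to 0.92 at 16 h. Within PE, 8 of 10 genes passed between 16 h and 3 h, 7 lower and ABA4 higher (29.6% of loci in all, 13.1% lower). ABA1 was 32-fold lower at 16 h, with arrays of 5.76, 5.63, 6.18 and 6.62, against 11.06, 11.01 and 11.06 at 3 h (-5.0 ± 0.19, adjusted p = 9.96e-42). NCED9 was 13-fold lower (-3.70 ± 0.23, adjusted p = 1.76e-27), with 4.35 ± 0.31 at 16 h and 8.05 ± 0.33 at 3 h. The other log2 differences were -2.03 for NCED5, -1.65 for ABA3, -1.29 for AAO3, -1.27 for NCED2 and -1.13 for ABA2.

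Cotyledons kept more ABA1 than the radicle and the remaining endosperm at 16 h. COT passed for 6 genes between 16 h and 3 h, ABA1, ABA2, ABA3, NCED2 and NCED9 lower and ABA4 higher (30.8% of loci), and for none between 31 h and 16 h (limma; 11.2% of loci passed; 2 genes and 44.9% of loci at an unadjusted p under 0.05). ABA1 at 16 h read 7.17, 7.41, 7.36 and 7.38 in COT and 6.06, 6.03, 6.28 and 5.86 in RAD, so that every COT array was higher (1.28 ± 0.18, adjusted p = 2.59e-09). PE, at 6.05 ± 0.45, was below COT at 16 h (-1.29 ± 0.18, adjusted p = 1.46e-09; 15% of loci). NCED5 at 16 h was 3.45 ± 0.11 in COT and 4.75 ± 0.14 in RAD (-1.30 ± 0.21, adjusted p = 7.3e-08), and these 2 genes were the ones that passed for COT minus RAD at 16 h (11.2% of loci).

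ABA2 alone passed for COT minus RAD at 31 h, with arrays of 4.20, 4.51, 4.22 and 4.41 in COT and 6.12, 6.28, 6.03 and 5.97 in RAD (-1.76 ± 0.18, adjusted p = 5.11e-15; 15.4% of loci). At 3 h ABA4 (-1.0 ± 0.21) and NCED5 (-1.03 ± 0.21) were lower in COT than in RAD (4.71% of loci), both at the fold minimum. Without COT at 3 h replicate 2, a redone array, ABA4 was at -0.91 and missed it. Leaving out COT replicate 4 or RAD replicate 1 or 4 took ABA4 to -0.86, -0.92 and -0.99, and leaving out COT replicate 1 or 3 or RAD replicate 2 or 4 took NCED5 to between -0.99 and -0.95. ABA4 also missed after a repeated quantile normalization (-0.82) and with array weights (-0.97). With a scaling by trimmed means both missed, ABA4 at -0.89 and NCED5 at -0.92. PE exceeded COT at 3 h for NCED5 (1.52 ± 0.22, adjusted p = 1.55e-08) and NCED9 (1.2 ± 0.23, adjusted p = 9.25e-06), where 6.86% of loci passed. NCED9 read 7.69, 8.11 and 8.35 in PE and 6.96, 6.33, 7.01 and 7.09 in COT, so the parts did not overlap. EPR1 was 13.8 in PE and 7.81 in COT at 3 h, and its part in the COT values was not tested.

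Whole dry seed holds all parts, and seed and part differ in makeup, so differences from it are of both time and tissue. MCE at 1 h minus dry seed gave 0 of 10 genes (limma; 3.35% of loci passed; 4 genes and 30.9% of loci at an unadjusted p under 0.05). ABA1 (0.56 ± 0.18), NCED2 (0.52 ± 0.16) and NCED9 (0.66 ± 0.21) had an adjusted p under 0.05 at any fold, as did 21.2% of loci. Of these 3 genes, ABA1 and NCED9 were apart on the arrays. RAD at 1 h was lower for ABA3, with arrays of 5.93, 5.81, 6.23 and 6.26, against 7.58, 7.28, 7.31 and 7.25 in dry seed (-1.30 ± 0.20, adjusted p = 1.9e-07; 3.21% of loci). COT at 3 h was lower for ABA3 (-1.30 ± 0.20, adjusted p = 1.71e-07) and higher for NCED9 (1.52 ± 0.21, adjusted p = 6.5e-09; 3.36% of loci). PE at 3 h was higher for NCED9 alone, with 8.05 ± 0.33 against 5.33 ± 0.35 in dry seed (2.72 ± 0.23, adjusted p = 2.42e-18; 5.89% of loci). ABA1 was already high in dry seed, at 10.68, 10.72, 10.65 and 10.56.

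The steps between consecutive stages were chosen after the levels had been seen. Between 3 h and 1 h NCED9 alone passed, in MCE (3.00% of loci) and in RAD (1.2% of loci). Between 7 h and 3 h, 4 genes passed in MCE (ABA1, NCED2, NCED5 and NCED9, each lower; 13.7% of loci), and in RAD ABA1 and NCED5 fell and ABA4 rose (13.8% of loci), the last with overlapping arrays. ABA4 in MCE missed in this step (0.99) and passed higher without the redone MCE at 7 h replicate 2 (1.33), with array weights (1.14) and without MCE at 3 h replicate 1 (1.04), and NCED9 in RAD passed lower without the redone RAD at 7 h replicate 3 (-1.16). Between 12 h and 7 h, 5 passed in MCE (ABA4 and NCED5 higher, ABA1, ABA2 and NCED9 lower; 10% of loci) and 3 in RAD (NCED5 higher, ABA1 and NCED9 lower; 10.5% of loci). NCED9 in RAD dropped by 2.19 in this step (-2.19 ± 0.21, adjusted p = 1.16e-15) to a low mean, and in MCE by 1.13, which was 0.98 without MCE at 12 h replicate 1 (-1.13 ± 0.21; -0.98). After 12 h ABA1 (-1.46 ± 0.18) and NCED5 (-1.45 ± 0.21) fell in MCE to 16 h (5.15% of loci), NCED9 (-1.26 ± 0.21) to 31 h (3.59% of loci), and ABA1 rose (1.37 ± 0.18) to 38 h with the endosperm intact (5.82% of loci). In RAD the one such step after 12 h was ABA2, higher by 1.45 ± 0.18 at 38 h with the endosperm intact than at 31 h (7.03% of loci). The other 6 steps after 12 h gave 0 genes by limma, with 5.41% (16 to 20 h) and 1.28% (20 to 25 h) of loci in MCE and 3.92% (12 to 16 h), 1.07% (16 to 20 h), 0.389% (20 to 25 h) and 1.71% (25 to 31 h) in RAD. At an unadjusted p under 0.05 these steps held 5 and 2 genes in MCE (33.1% and 20.3% of loci) and 2, 3, 2 and 1 in RAD (28.1%, 21.2%, 16.1% and 18.5% of loci).

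**Figure D5:**
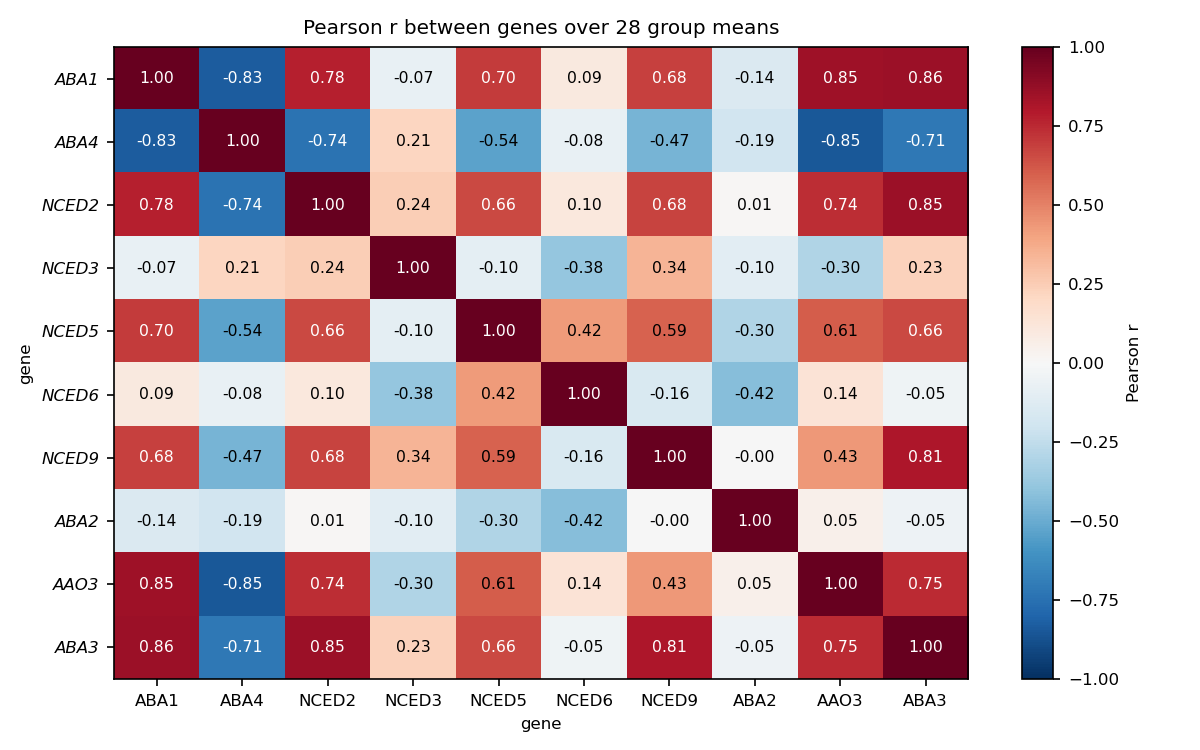
Pearson r between each pair of the 10 genes (rows and columns in pathway order; colour and printed value) over the 28 group means. ABA1, NCED2, AAO3 and ABA3 are positively correlated with each other, ABA4 is negatively correlated with these 4, and ABA2 has no r above 0.05 with another gene.

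Across the 28 group means, which share sampling times and normalization, the genes fell into unlike courses. The highest correlations were between ABA1 and ABA3 (r = 0.856), ABA3 and NCED2 (r = 0.855) and ABA1 and AAO3 (r = 0.847). ABA4 ran against AAO3 (r = -0.846) and ABA1 (r = -0.833), and the dioxygenases did not share one course, with r of 0.59 between NCED5 and NCED9 and -0.16 between NCED6 and NCED9. Among 10945 other loci that spanned at least 2 log2 units, the one most like ABA1 over the 28 groups was AT1G30260 (r = 0.988). For ABA3 the closest included TAG1, an acyltransferase of seed oil synthesis (r = 0.965), and for ABA4 they were EXPA1, an expansin (r = 0.967), MAP65-7, a microtubule-associated protein (r = 0.949), and CYP96A11 (r = 0.944). For NCED9 they included PDLP1, a plasmodesmata protein (r = 0.939), and PP2-B1 (r = 0.91), for NCED5 HVT1 and THA1, a threonine aldolase (r = 0.866 and 0.863), and for ABA2 AT2G47320 (r = 0.905).

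Genes around the pathway were taken from lists of 40 loci, 39 of them measured. Of 13 listed genes of carotenoid metabolism, 5 rose and 2 fell in MCE over the whole course (18.8% of all loci higher, 18.1% lower). In RAD 4 rose and 6 fell (21.8% higher, 17.5% lower). PSY, phytoene synthase, had 9.76 ± 0.10 at the last stage and 7.25 ± 0.12 at 1 h in MCE (2.51 ± 0.20), and 7.31 ± 0.23 and 4.08 ± 0.35 in RAD (3.23 ± 0.20). BETA-OHASE 2, a carotene hydroxylase that makes zeaxanthin, fell by 5.68 in MCE and 5.01 in RAD. GGPS1, a geranylgeranyl diphosphate synthase, rose by 4.13 in MCE. At the last stage 9 of the 13 were higher in MCE than in RAD and none was lower (14.1% of all loci higher, 17.6% lower), with a median difference of 1.19 beside 0.04 over all loci, and BETA-OHASE 1 led with 9.17 ± 0.04 in MCE and 6.50 ± 0.11 in RAD. None of the 13 passed at either rupture in either part (3.37% and 2.02% of loci at the testa, 1.32% and 1.91% at the endosperm, in MCE and RAD in each case).

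Among 4 other carotenoid cleavage dioxygenases, NCED4, which cleaves other carotenoids despite its name, fell to 3.35 ± 0.25 in MCE and 3.01 ± 0.10 in RAD at the last stage, against 7.44 ± 0.31 in MCE and 9.24 ± 0.26 in RAD at 1 h. CCD7 fell in both parts too, and CCD8, which acts with it in strigolactone synthesis, rose in MCE by 3.02 ± 0.29. In all, 1 of the 4 rose and 2 fell in MCE (18.8% of all loci higher, 18.1% lower). In RAD 3 fell (17.5% lower). Of 2 other aldehyde oxidases measured, AO1 fell by 5.40 in MCE and 4.46 in RAD over the whole course. AAO2 rose by 1.25 and 2.66 (36.9% of all loci passed in MCE and 39.3% in RAD). Of 6 genes of molybdenum cofactor synthesis, 1 rose and 2 fell in MCE (18.8% of all loci higher, 18.1% lower) and 3 fell in RAD (17.5% lower), with CNX2 lower in both (-1.36 in MCE and -2.04 in RAD).

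Of 4 genes for abscisic acid 8'-hydroxylases, which start the breakdown of the hormone, 2 were higher with the testa ruptured than intact in each part at 25 h (3.37% of all loci passed in MCE and 2.02% in RAD). In MCE these were CYP707A1 (2.49 ± 0.26) and CYP707A3 (1.79 ± 0.38). In RAD they were CYP707A1 (1.17 ± 0.26) and CYP707A2, with 9.03 ± 0.37 ruptured and 6.82 ± 0.34 intact (2.21 ± 0.27, adjusted p = 1.57e-10). Over the whole course CYP707A1 and CYP707A3 rose and CYP707A2 fell in both parts (36.9% of all loci passed in MCE and 39.3% in RAD). Of 4 genes for conjugation with glucose and its release, 1 fell in each part over the whole course, UGT71B6 in MCE (-2.56 ± 0.13; 18.1% of all loci lower) and UGT71C5 in RAD (-1.56 ± 0.15; 17.5% lower). Of 6 transporters, NRT1:2 and ABCG25 rose in both parts (18.8% of all loci higher in MCE, 21.8% in RAD), ABCG30 rose and ABCG31 fell in MCE (18.1% lower), and at the last stage ABCG25, an exporter, had 10.7 ± 0.04 in MCE and 5.10 ± 0.04 in RAD (5.57 ± 0.15, adjusted p = 4.01e-54).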

How the data were processed

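Gene expression was measured on Affymetrix arrays with 100 ng of input per sample for the biotin labelling, per the labels. The deposited table holds log2 values for each locus and array; per the submitters' processing notes RMA and affy were used, with versions not given, so background, normalization over arrays and probe summary were set by that step. The sources used here do not give the probe definition or the genome build, and no sequence or position is printed. Array medians lay between 4.67 and 5.22, no arrays were identical, and the lowest correlation between replicates of a group was 0.98. The number of arrays limits the precision (typical SD 0.185).

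Groups were taken from the titles. The log2 values were fitted as deposited with limma 3.58.1 in R 4.3.3, with 1 mean per group over 111 arrays, 83 residual degrees of freedom, a prior worth 8.02 and two-sided tests, in 43 main comparisons and 16 steps added after the levels were seen. Symbols came from a RefSeq table that held 21205 of the 21313 loci. The text names all 10 genes, for each with a span of at least 2 up to 3 loci of highest correlation, and up to 3 of the most changed passing genes of each list in a comparison (ABCG31 was added after its value was seen). The members and lists were chosen with earlier results of these data known. Alternatives were another normalization, scaling, filter, prior, array weights, a replicate block, smaller fits and fits without arrays; without a single array, members were refitted with the prior and p threshold of the full fit. The procedure was tested on simulated data.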

Additional observations from a re-analysis of the deposited data

Results flagged for a closer look

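In 13 of 270 sets of 4 arrays of a gene, 1 array lay far from the other 3; chance gives about 1 in 20 sets, as many as seen. For NCED9 these were MCE at 16 h replicate 1 at 4.70 (others 5.33 to 5.43), MCE at 20 h replicate 1 at 5.14 (5.58 to 5.66), MCE at 38 h with the endosperm ruptured replicate 3 at 3.85 (3.54 to 3.57) and COT at 3 h replicate 2, a redone array, at 6.33 (6.96 to 7.09). For ABA4 they were RAD at 7 h replicate 3, also redone, at 6.19 (7.60 to 7.79) and MCE at 38 h with the endosperm intact replicate 1 at 8.05 (7.86 to 7.88). For AAO3 they were MCE at 31 h replicate 1 at 3.84 (4.15 to 4.19) and PE at 16 h replicate 2 at 3.26 (3.87 to 3.93). ABA2 in MCE at 3 h replicate 1 read 5.55 (5.96 to 6.01) and ABA3 in dry seed replicate 1 read 7.58 (7.25 to 7.31). The NCED9 group at 38 h and the AAO3 group of PE had low means. The other 3, in low groups too, were NCED3 in MCE at 25 h with the testa intact replicate 4 at 2.91 (3.29 to 3.37), NCED3 in COT at 31 h replicate 2 at 2.76 (2.87 to 2.89) and NCED6 in RAD at 38 h with the endosperm ruptured replicate 1 at 3.34 (3.44 to 3.46).

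The change over an interval differed between MCE and RAD in 7 of 60 tests of the interaction (11.7%, beside 13% over all loci). For 12 h minus 1 h it was NCED2 (-1.12), and for 25 h with the testa intact minus 12 h ABA1 (-1.22). For 38 h with the endosperm intact minus 25 h with the testa ruptured they were ABA1 (1.59), ABA2 (-2.42) and NCED9 (-1.71). For 38 h with the endosperm ruptured minus 1 h they were ABA1 (1.82) and ABA2 (-3.44).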

How the results depend on the processing

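Shares of passing tests by set of comparisons are given for these genes beside all loci. They were 26.7% beside 16.4% over time in MCE, 20% beside 15.7% over time in RAD and 21.8% beside 19% for MCE minus RAD. For PE and COT they were 22% beside 12.6%, against dry seed 10% beside 3.96%, and for the added steps 13.8% beside 5.47%. A gene is tested repeatedly within a set, and NCED9 gave 8 of the 24 that passed for MCE minus RAD. Only the interactions, at 11.7% beside 13%, lay below the share over all loci. Of the differences of single genes 107 passed, and 101 of these passed in every fit without 1 array. Lost in some were NCED9 in MCE from 7 to 12 h, ABA1 for MCE minus RAD at 20 h, ABA4 for MCE minus RAD at 38 h with the endosperm intact, ABA4 and NCED5 for COT minus RAD at 3 h, and NCED5 in RAD from 12 to 25 h (-0.97 without RAD at 12 h replicate 1), all close to the fold minimum. Counts of passing differences without single arrays ran from 16 to 16 over time in MCE, 11 to 13 over time in RAD, 7 to 10 for the interactions, 23 to 26 for MCE minus RAD, 20 to 23 for PE and COT, 4 to 5 against dry seed and 21 to 23 for the added steps. The other settings kept each count within 1.5 times and reversed no sign. The filter on low loci, the intensity trend, the smaller fits and the replicate block lost none of the 107, array weights and the trimmed scaling lost 2 each, the repeated quantile normalization 3 and leaving out the redone arrays 1. Calls gained were 6 with array weights, 3 with the trimmed scaling, 8 with the quantile normalization, 5 without the redone arrays and 1 without the arrays whose source name differs. With the replicate number as a block the counts were 16, 12, 7, 24, 22, 4 and 22, as without it. The labels do not say that a number marks a shared source, and not all pairs exceeded 0.1: deviations from group means correlated with a median of 0.04 between arrays of the same number (-0.26 to 0.43 over 1485 pairs) and -0.01 otherwise, while 66 of 111 arrays (59.5%, where equal closeness to the numbers would give 25%) were closest to their own number, a hint from the data and not from the design. The trimmed scaling moved the median of all loci, for example from -0.07 to -0.285 for 12 h minus 1 h in MCE. Under it and under the quantile normalization 8 and not 6 genes spanned at least 2 units, with AAO3 and NCED2 added, and the highest group of NCED5 was PE at 3 h. No probe-level signal over background was used, and for NCED2, NCED3, NCED5 and NCED6, low in 18 to 28 of the 28 groups, and NCED9, low in 12, differences that involve low groups are limited by it.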
